A study of Mus musculus with 24 samples.

Results

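The spliceosome core proteins examined here were the mouse genes whose symbols start with Snrp, Sf3a, Sf3b or Lsm followed by a letter or digit, 33 of the 17097 genes measured. Where a gene had several probe sets, the one brightest on average across the 24 arrays was used. Messenger RNA was measured on Affymetrix HT MG-430 PM arrays in naive CD4 T cells that had been sorted by flow cytometry out of spleens and peripheral lymph nodes, 4 samples in each of 6 groups. The groups were CD4(cre)Raptor(fl/fl) cells (called Raptor-deficient) and wild-type cells (WT, strain label C57BL/6), each unstimulated or kept for 8 h or 24 h on plates carrying antibodies to CD3 and CD28. No strain is labelled for the CD4(cre)Raptor(fl/fl) mice. Cre under the Cd4 promoter removes the floxed part of Rptor in the T cell lineage from its development in the thymus onward. Naive cells were gated as CD4+ with high CD62L, low CD44 and no CD25. No label says whether replicates are separate animals, and p-values therefore rest on a spread among samples that could be partly technical.

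The spliceosome is built on small nuclear ribonucleoproteins (snRNPs), in which a short RNA carries a ring of Sm proteins and a few proteins of its own. U1 and U2 snRNPs mark the 5′ splice site and the branch point, the SF3a and SF3b complexes belong to U2, and the ring of Lsm2 to Lsm8 holds the 3′ end of U6 RNA. Rptor encodes Raptor, the subunit that defines mTORC1, a kinase complex that promotes growth and protein synthesis, and resting T cells enlarge and begin to divide after stimulation through CD3 and CD28.

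Promoter sequence is shown for 6 members that the results turn on: Lsm3, Lsm5 and Lsm8, whose rise to 24 h differed between genotypes, Snrpa1 and Snrpb2, which were lower in Raptor-deficient cells at 8 h and at 24 h under every setting tried, and Sf3b1, which fell with stimulation. RefSeq promoter windows of build GRCm38.p6 were found for 26 of the 33 members (33 windows). Lsm1, Lsm12, Lsm4, Sf3b4, Sf3b5, Snrpb and Snrpd1 are named only. The 250 bases before each start were searched on both strands for 5 motifs: CACGTG (E-box bound by Myc with Max), CCGGAAG (ETS family), GGGCGG (GC box bound by Sp1), CCAAT (bound by NF-Y) and the palindromic NRF1 motif. The runs below are written 5′ to 3′ along the gene and carry every match in capitals, on either strand. They run up to the start, except for Sf3b1, whose run stops 23 bases before the start used in the search. No matches shown overlapped one another. Bases that lie inside a RefSeq gene were left out, in Lsm3 those of the neighbouring gene Xpc and in Sf3b1 the 23 that lie inside the annotated Sf3b1 gene itself.
Lsm3 (chr6:91515889-91516034, plus strand): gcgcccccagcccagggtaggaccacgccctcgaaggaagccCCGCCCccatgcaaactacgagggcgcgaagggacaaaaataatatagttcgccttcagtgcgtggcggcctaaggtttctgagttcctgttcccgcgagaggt
Lsm5 (chr6:56704700-56704949, minus strand): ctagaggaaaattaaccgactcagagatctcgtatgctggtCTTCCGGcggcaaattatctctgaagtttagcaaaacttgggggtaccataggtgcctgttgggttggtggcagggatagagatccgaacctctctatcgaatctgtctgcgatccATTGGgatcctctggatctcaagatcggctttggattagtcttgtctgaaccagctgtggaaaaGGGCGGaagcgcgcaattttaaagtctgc
Lsm8 (chr6:18848385-18848634, plus strand): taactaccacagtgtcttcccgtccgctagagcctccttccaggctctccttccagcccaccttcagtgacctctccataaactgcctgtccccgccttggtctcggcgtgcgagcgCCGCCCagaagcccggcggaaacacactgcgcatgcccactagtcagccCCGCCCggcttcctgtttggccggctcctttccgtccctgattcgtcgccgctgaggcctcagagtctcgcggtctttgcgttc
Snrpa1 (chr7:66060086-66060335, plus strand): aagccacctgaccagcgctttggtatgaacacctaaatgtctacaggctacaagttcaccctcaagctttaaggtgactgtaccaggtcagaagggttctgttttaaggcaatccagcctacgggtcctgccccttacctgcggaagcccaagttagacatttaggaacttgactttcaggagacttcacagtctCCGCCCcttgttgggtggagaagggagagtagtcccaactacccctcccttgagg
Snrpb2 (chr2:143062819-143063068, plus strand): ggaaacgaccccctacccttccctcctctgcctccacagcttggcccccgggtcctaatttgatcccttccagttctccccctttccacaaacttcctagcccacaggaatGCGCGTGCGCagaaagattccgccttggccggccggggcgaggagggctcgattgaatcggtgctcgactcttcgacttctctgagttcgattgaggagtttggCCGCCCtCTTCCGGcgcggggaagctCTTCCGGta
Sf3b1 (chr1:55027502-55027728, minus strand): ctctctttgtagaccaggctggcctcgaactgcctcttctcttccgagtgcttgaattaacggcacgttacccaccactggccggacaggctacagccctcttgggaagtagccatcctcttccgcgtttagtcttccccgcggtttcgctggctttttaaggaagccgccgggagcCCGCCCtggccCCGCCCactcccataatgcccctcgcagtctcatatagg
GC boxes stood in all 6 stretches, and the stretch before Sf3b1 carried 2 of them, as did that before Lsm8. Over the full windows, the GC box was in 51.5% of member windows and in 42.6% of the 21262 windows of protein-coding genes. CCGGAAG was in 33.3% of member windows (10 genes) and in 8.98% of protein-coding windows, the NRF1 motif in 18.2% and 6.85%, CCAAT in 33.3% and 35.4%, and CACGTG in 6.06% and 6.63%, where Snrpa was the member concerned. Over all 32851 windows the shares were 32.7% for GGGCGG, 6.91% for CCGGAAG, 4.98% for the NRF1 motif, 33.8% for CCAAT and 6.02% for CACGTG. A match describes letters and was not tested as a binding site.

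The deposited values were log2 intensities with nearly equal array medians (5.152 to 5.288), so they give levels relative to the whole array and not RNA per cell, and levels of different genes are not compared. Cd3e stood between 10.4 and 11.0 on all arrays and Cd4 between 9.81 and 11.3, and none of 9 measured T cell genes averaged below the median of all gene values in any group. Rptor, whose probe set was not placed relative to the deleted part, was at 5.92 to 7.37 in Raptor-deficient and 7.04 to 7.49 in WT cells without stimulation, with overlap, at 6.27 to 6.79 against 7.46 to 7.57 at 8 h, and at 6.25 to 6.60 against 6.91 to 7.21 at 24 h. Some samples lay at an edge of their group for many of the 33 members. Unstimulated Raptor-deficient replicate 1 was the highest for 10 and the lowest for 16, and unstimulated WT replicate 4 the highest for 8 and the lowest for 18. WT replicate 1 at 8 h was the lowest for 20, and Raptor-deficient replicate 3 at 24 h the highest for 25. Liver transcripts were found in replicate 1 of both genotypes at 24 h, where Alb stood at 9.11 (Raptor-deficient) and 9.02 (WT), against 6.22 to 6.42 in the other 24 h samples. In these bulk samples fewer cells of a kind and less RNA per cell cannot be told apart.

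Stimulation of WT cells was accompanied by higher levels of nearly the whole group. At 8 h, 28 members rose and 2 fell, where 18.9% of all genes were called higher and 20.8% lower, at an adjusted p under 0.05. At 24 h against unstimulated WT cells, 29 rose and 2 fell, beside 25.4% and 24.3% of all genes. The median member was 1.03 higher at 8 h and 1.27 higher at 24 h on the log2 scale, where the median over all genes was -0.03 at both times. At 24 h the rise was at least 2-fold for 23 members and at least 1.5-fold for 28. Snrpn and Lsm14b were not called at 24 h, and Sf3b1 and Lsm11 were the members that fell. Between 8 h and 24 h in WT cells 16 further rises and 1 fall were called (17.4% and 11.0% of all genes), with a median difference of 0.27.

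Raptor-deficient cells showed a rise in most members as well. At 8 h, 25 members rose and 3 fell (16.0% and 16.8% of all genes), and at 24 h against unstimulated cells 29 rose and 2 fell (21.6% and 17.5% of all genes). The median member was 0.61 higher at 8 h and 0.94 higher at 24 h, where the median over all genes was 0.00 and -0.01. Between 8 h and 24 h, 19 members rose and 0 fell (15.2% and 7.81% of all genes), with a median of 0.36. At an unadjusted p under 0.05 that last comparison had 21 members, and after cyclic loess normalization it had 12 calls, with 2155 genes higher and 1783 lower over the whole array, beside 2592 and 1335 as deposited. The plot of all members by sample shows both genotypes side by side.

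**Figure D1:**
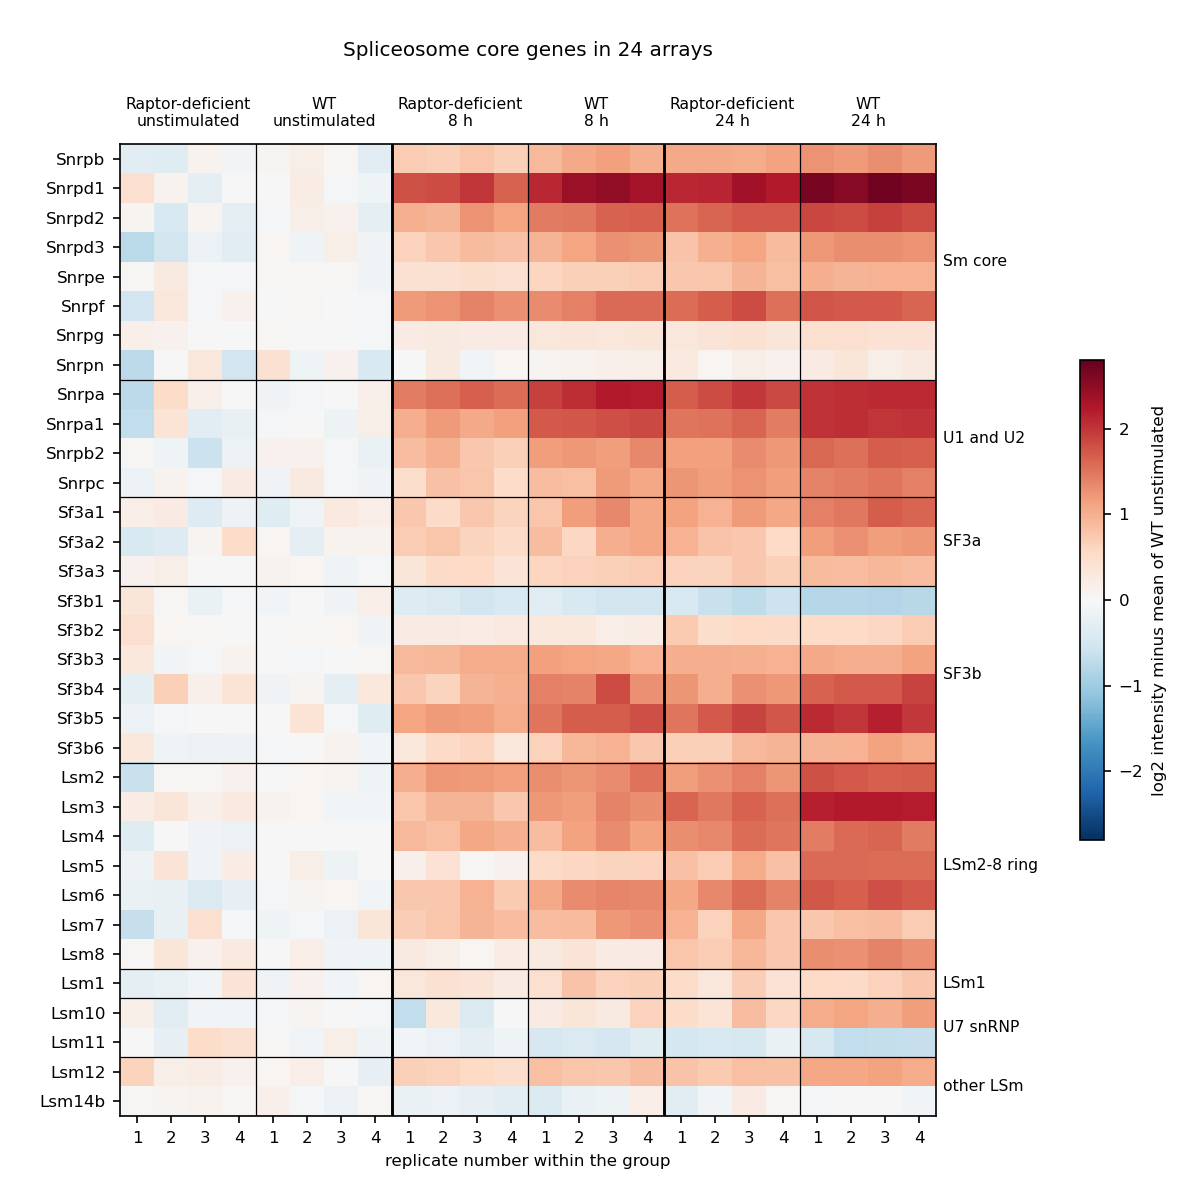
Colour gives the log2 intensity of each of the 33 members (rows, grouped by role) in each of the 24 samples (columns, replicate number below), minus that member's mean in unstimulated WT cells. Red rows dominate at 8 h and 24 h in both genotypes and are deepest for Snrpd1, while Sf3b1 and Lsm11 are blue.

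Without stimulation the genotypes differed in 1 member, Snrpd3, which was lower in Raptor-deficient cells, where 1.24% of all genes were called lower and 0.702% higher. The member median was -0.02 and 5 members had an unadjusted p under 0.05. No member was called (0) without Raptor-deficient unstimulated replicate 1, without WT unstimulated replicate 1 or 3, or when the probe sets of a gene were averaged, and without Raptor-deficient unstimulated replicate 2 the Snrpd3 call was lost. With arrays centred on their medians 143 genes were called higher and 158 lower, beside 120 and 212 as deposited.

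After stimulation the Raptor-deficient cells had lower levels than WT cells in about the same number of members at 8 h and at 24 h. At 8 h, 17 members were lower and 0 higher than in WT cells, beside 8.77% of all genes called lower and 4.14% called higher, and 31 of the 33 differences were negative. At 24 h, 16 were lower and 0 higher, beside 13.1% and 8.35% of all genes, and 30 differences were negative. The median member difference was -0.30 at 8 h and -0.23 at 24 h on the log2 scale, where the median over all genes was 0.01 at both times. All 4 Raptor-deficient samples lay below all 4 WT samples for 21 members at 8 h, as for 12.5% of all genes, and for 21 members at 24 h, as for 16.5% of all genes. No member differed by as much as 2-fold, and 2 members at each time were lower by at least 1.5-fold.

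The counts depended on single libraries and on the scaling. After cyclic loess normalization 11 members were lower at 8 h, and over all genes 912 were higher and 1210 lower, beside 707 and 1500 as deposited. At 8 h 11 members were called lower without Raptor-deficient replicate 1 and 11 without WT replicate 3, and at 24 h 9 were called without Raptor-deficient replicate 2, 10 without WT replicate 3 and 9 without the 2 samples that held liver transcripts. Across 35 alternative settings, including the omission of each array in turn, 9 calls held throughout at 8 h (Lsm3, Lsm5, Sf3b4, Sf3b5, Snrpa, Snrpa1, Snrpb2, Snrpd1 and Snrpd2) and 6 at 24 h (Lsm3, Lsm5, Lsm8, Sf3b4, Snrpa1 and Snrpb2). Many of the 35 could hardly change a call. Omitting an array outside the 2 groups compared left the difference unchanged and altered only the estimated spread. Averaging probe sets left members with 1 probe set as they were. The plot of genotype differences gives every member with its interval.

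**Figure D2:**
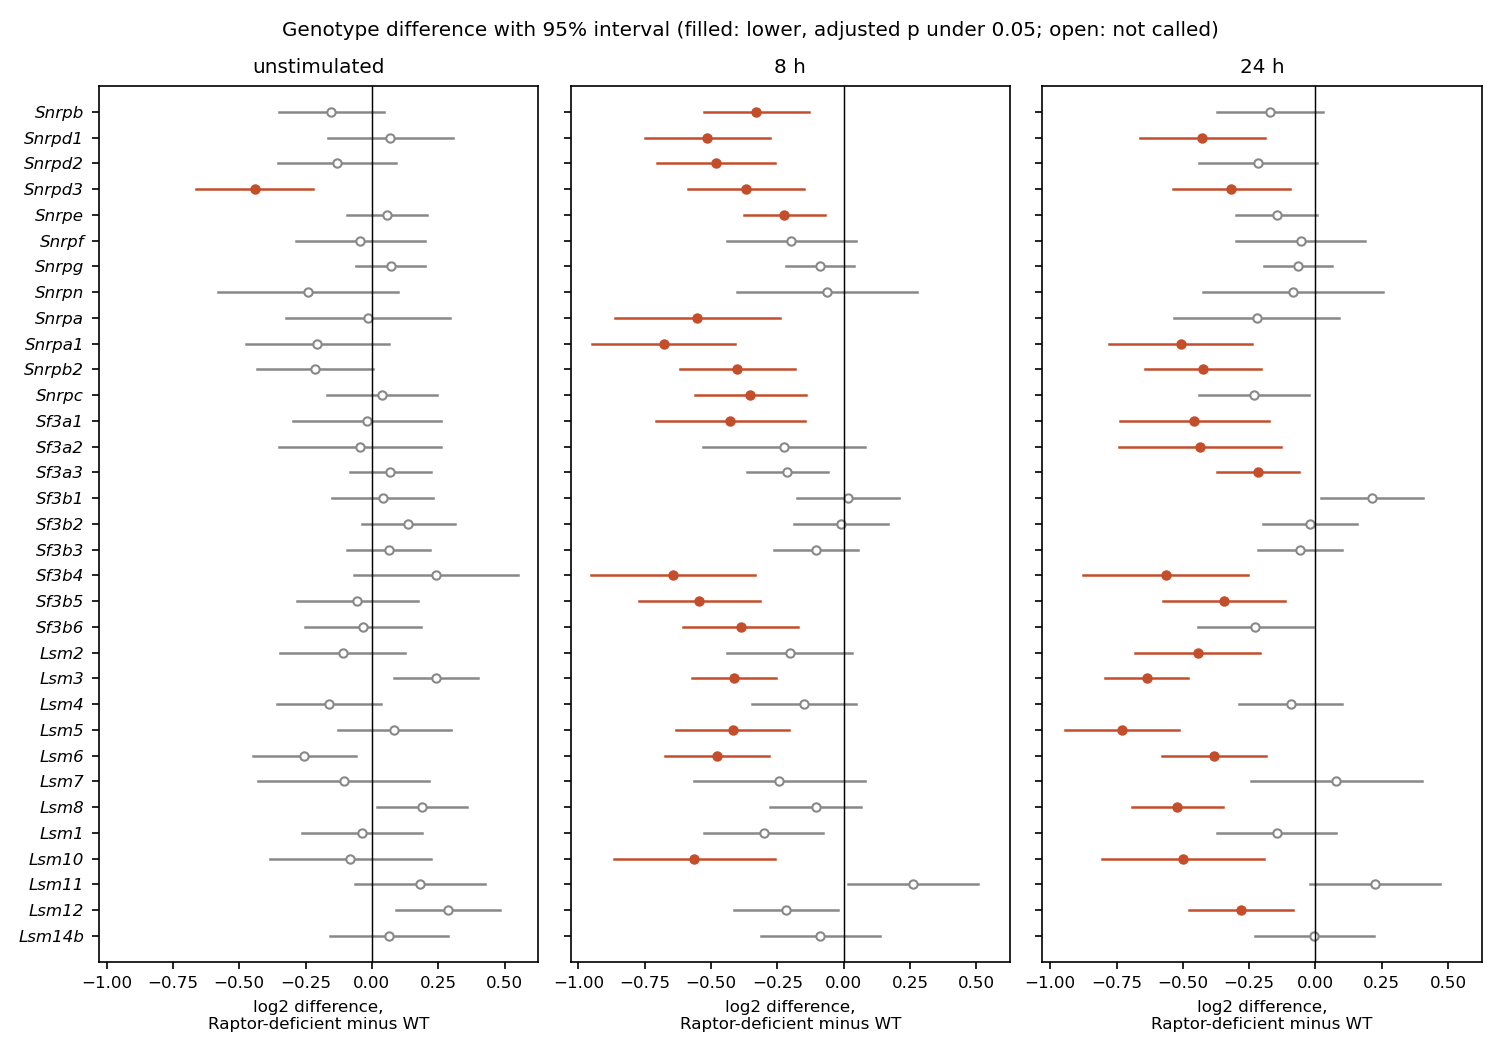
Points give the log2 difference, Raptor-deficient minus WT, for each of the 33 members in unstimulated cells, at 8 h and at 24 h, and bars the 95% interval from the fit. Filled points mark the 1, 17 and 16 members called lower, and open points the members not called.

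Markers of other cells and of cell state were set beside the genotype comparisons. In these, 1.24% of all genes were lower and 0.702% higher without stimulation. The shares were 8.77% lower and 4.14% higher at 8 h, and 13.1% and 8.35% at 24 h. Of 9 measured B cell genes, 0 were called without stimulation, 1 was higher in Raptor-deficient cells at 8 h and 3 at 24 h. The mean level of the list was 5.18 to 5.69 in Raptor-deficient and 4.93 to 5.31 in WT samples without stimulation. It was 5.25 to 5.69 against 5.01 to 5.09 at 8 h, and 5.29 to 5.91 against 4.87 to 5.15 at 24 h. Of 9 T cell genes 2 were lower without stimulation and 3 at 8 h, and 1 was higher and 1 lower at 24 h. Only the 24 h shares were close to those of all genes. T cell list means were 9.85 to 9.93 in Raptor-deficient and 9.96 to 10.04 in WT samples without stimulation. They were 9.74 to 9.89 against 10.04 to 10.19 at 8 h, and 10.36 to 10.45 against 10.30 to 10.42 at 24 h. Of 9 myeloid genes 1 was higher without stimulation, 2 at 8 h and 2 at 24 h, and list means in Raptor-deficient samples were above those in WT samples at all 3 times: 4.38 to 4.77 against 4.21 to 4.38 without stimulation, 4.55 to 4.71 against 4.17 to 4.28 at 8 h, and 4.22 to 4.48 against 4.09 to 4.21 at 24 h. The median of all gene values was 5.52, and 5 of the 9 B cell genes in Raptor-deficient and 7 in WT cells averaged below it at 24 h. The 7 NK genes had list means of 4.19 to 4.35 in Raptor-deficient and 4.40 to 4.57 in WT samples without stimulation. At 8 h and 24 h these overlapped. For 2 CD8 genes they were 5.63 to 6.01 against 6.14 to 6.36 at 8 h, with overlap at the other times. For 4 erythroid and platelet genes they were 4.72 to 5.17 against 4.33 to 4.69 at 24 h, with overlap otherwise. All 6 measured cell cycle genes were lower in Raptor-deficient cells at 24 h, with list means of 7.22 to 7.42 against 9.41 to 9.51, and Mki67 stood at 6.67 to 7.19 against 10.96 to 11.02. At 8 h 1 of these 6 genes was called (lower), and list means were 6.49 to 6.56 in Raptor-deficient and 6.47 to 6.75 in WT samples. Of 6 activation genes the list means were 5.98 to 6.38 in Raptor-deficient and 5.49 to 5.78 in WT samples without stimulation, 10.90 to 11.19 against 10.86 to 11.04 at 8 h, and 10.41 to 10.55 against 10.08 to 10.21 at 24 h, with overlap at 8 h. Of these genes 2 were higher without stimulation, 2 higher and 1 lower at 8 h, and 3 higher and 1 lower at 24 h. Myc was at 11.60 to 11.81 in Raptor-deficient and 11.13 to 11.31 in WT cells at 24 h. The part of these differences in the member results was not tested.

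The Sm proteins form the ring common to the U1, U2, U4 and U5 snRNPs. Of 8 measured Sm genes, 7 rose in WT cells by 24 h, 5 were lower in Raptor-deficient than WT cells at 8 h and 2 at 24 h. Snrpd1, which encodes SmD1, had the largest rise of all 33 members. Unstimulated Snrpd1 levels were 8.72, 8.38, 8.03 and 8.28 in Raptor-deficient cells, against 8.27, 8.48, 8.22 and 8.15 in WT cells. At 8 h, Snrpd1 stood at 10.06, 10.12, 10.29 and 9.93 in Raptor-deficient cells, against 10.40, 10.69, 10.75 and 10.62 in WT cells. At 24 h, Snrpd1 stood at 10.39, 10.41, 10.63 and 10.51 in Raptor-deficient cells, against 10.93, 10.83, 10.97 and 10.92 in WT cells. Groups overlapped without stimulation and every Raptor-deficient sample lay below every WT sample at both later times. The rise from unstimulated cells to 24 h was 2.13 ± 0.11 in Raptor-deficient cells and 2.63 ± 0.11 in WT cells (log2 difference ± SE, n = 4 samples a group here and below; adjusted p = 3.19e-14 and 1.9e-16). Raptor-deficient cells were lower than WT cells by a log2 difference of -0.52 ± 0.11 (adjusted p = 0.00257) at 8 h and of -0.43 ± 0.11 (adjusted p = 0.00731) at 24 h. The 24 h call was lost in 1 of 35 alternatives. The Snrpd1 probe set carries the suffix that Affymetrix gives to sets matching several transcripts, as do those used for Snrpe, Snrpg, Lsm6 and Sf3b5, while that of Snrpn carries the suffix for sets with probes that also match other sequences. A share of related transcripts in these values cannot be told apart.

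Snrpd2 encodes SmD2, which pairs with SmD1 in the ring. Unstimulated Snrpd2 levels were 9.48, 8.97, 9.48 and 9.14 in Raptor-deficient cells, against 9.37, 9.56, 9.51 and 9.16 in WT cells. At 8 h, Snrpd2 stood at 10.40, 10.36, 10.67 and 10.50 in Raptor-deficient cells, against 10.85, 10.87, 11.06 and 11.08 in WT cells. At 24 h, Snrpd2 stood at 10.93, 11.03, 11.12 and 11.11 in Raptor-deficient cells, against 11.27, 11.23, 11.32 and 11.23 in WT cells. All Raptor-deficient samples were below all WT samples at 8 h and at 24 h, although at 24 h the difference of -0.22 ± 0.11 was not called (adjusted p = 0.179). At 8 h it was -0.48 ± 0.11 (adjusted p = 0.00297). Between 8 h and 24 h Snrpd2 rose by 0.56 ± 0.11 (adjusted p = 0.00028) in Raptor-deficient cells and by 0.30 ± 0.11 (adjusted p = 0.0395) in WT cells, and the WT call was lost in 9 of 35 alternatives. The difference between these 2 responses was 0.26 (adjusted p = 0.489).

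Snrpd3, which encodes SmD3, was the member already lower in unstimulated Raptor-deficient cells. Unstimulated Snrpd3 levels were 8.32, 8.56, 8.91 and 8.76 in Raptor-deficient cells, against 9.13, 8.95, 9.25 and 8.98 in WT cells. At 8 h, Snrpd3 stood at 9.72, 9.84, 9.97 and 9.91 in Raptor-deficient cells, against 10.04, 10.18, 10.36 and 10.32 in WT cells. At 24 h, Snrpd3 stood at 9.89, 10.08, 10.18 and 9.96 in Raptor-deficient cells, against 10.29, 10.38, 10.38 and 10.33 in WT cells. At none of the 3 times did the genotypes overlap, as for 3.47% of all genes without stimulation where all Raptor-deficient samples were the lower. Raptor-deficient cells differed from WT cells by -0.44 ± 0.11 (adjusted p = 0.028) without stimulation, by -0.37 ± 0.11 (adjusted p = 0.0206) at 8 h and by -0.32 ± 0.11 (adjusted p = 0.0337) at 24 h. Its rise to 24 h was 1.39 ± 0.11 in Raptor-deficient and 1.27 ± 0.11 in WT cells. Snrpd3 has 2 further probe sets, neither called between genotypes at any time, and one of them was lower at 24 h than in unstimulated WT cells (log2 difference -0.32), opposite to the probe set used. The Snrpd3 call was lost in 7 of 35 alternatives without stimulation, in 6 at 8 h and in 9 at 24 h, each time with probe sets averaged, and at 8 h and 24 h also after cyclic loess.

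Snrpf, which encodes SmF, rose in both genotypes by close amounts. Unstimulated Snrpf levels were 9.01, 9.86, 9.48 and 9.67 in Raptor-deficient cells, against 9.54, 9.58, 9.56 and 9.51 in WT cells. At 8 h, Snrpf stood at 10.75, 10.80, 10.94 and 10.84 in Raptor-deficient cells, against 10.88, 10.95, 11.14 and 11.15 in WT cells. At 24 h, Snrpf stood at 11.11, 11.25, 11.38 and 11.09 in Raptor-deficient cells, against 11.31, 11.28, 11.28 and 11.18 in WT cells. Genotypes overlapped at all 3 times. The rise to 24 h was 1.70 ± 0.12 in Raptor-deficient and 1.71 ± 0.12 in WT cells, and the genotype difference at 24 h was -0.05, with a 95% interval from -0.30 to 0.19. Snrpb, the gene of SmB, was lower in Raptor-deficient cells at 8 h, with a difference of -0.33 ± 0.10 (adjusted p = 0.022), and at 24 h its difference was -0.17 (adjusted p = 0.239). Snrpe, the gene of SmE, was lower at 8 h, with a difference of -0.22 ± 0.07 (adjusted p = 0.0443), a call lost in 18 of 35 alternatives.

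On the probe sets used, Snrpg and Snrpn had the smallest differences between WT cells at 24 h and unstimulated WT cells among the Sm genes. Snrpg, which encodes SmG, stood at 12.14 to 12.25 in Raptor-deficient and 12.23 to 12.28 in WT cells at 24 h, with 13.79 the highest value on any array, and rose by 0.29 ± 0.06 and 0.42 ± 0.06. Its second probe set averaged 11.31 in WT cells at 24 h and 10.46 in unstimulated WT cells. Snrpn encodes SmN, a close relative of SmB expressed mainly in brain and transcribed from the paternal allele. It stood at 6.18, 5.97, 6.08 and 6.04 in Raptor-deficient and 6.15, 6.24, 6.07 and 6.15 in WT cells at 24 h, and without stimulation at 5.18, 5.90, 6.22 and 5.36 in Raptor-deficient and 6.34, 5.79, 6.03 and 5.47 in WT cells. The groups overlapped and no comparison called it on the probe set used. An unused Snrpn probe set averaged 5.46 in unstimulated WT cells and 6.28 in WT cells at 24 h. In Raptor-deficient cells that set averaged 5.42 and 5.87. A further unused set averaged 4.71 and 4.54 in WT cells, and 4.65 and 4.50 in Raptor-deficient cells. Another 4 probe sets name both Snurf and Snrpn and were not used.

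The 4 members specific to U1 or U2 were alike in their calls with stimulation: all rose in both genotypes at 8 h and 24 h. All 4 were lower in Raptor-deficient cells at 8 h, and 2 were at 24 h. Snrnp70, a U1 gene outside the member rule, fell in WT cells by 24 h (-0.38 ± 0.07, adjusted p = 4.49e-05). Snrpa1 encodes a U2 protein that binds U2 RNA jointly with the product of Snrpb2, and it had the largest genotype difference of any member at 8 h. Unstimulated Snrpa1 levels were 7.59, 8.67, 8.00 and 8.09 in Raptor-deficient cells, against 8.24, 8.31, 8.16 and 8.46 in WT cells. At 8 h, Snrpa1 stood at 9.30, 9.48, 9.35 and 9.43 in Raptor-deficient cells, against 10.01, 10.04, 10.10 and 10.14 in WT cells. At 24 h, Snrpa1 stood at 9.79, 9.81, 9.93 and 9.73 in Raptor-deficient cells, against 10.32, 10.36, 10.30 and 10.31 in WT cells. At 8 h and 24 h the genotypes were fully separate, and without stimulation the Raptor-deficient samples spread on both sides of the WT samples. The log2 difference was -0.68 ± 0.13 (adjusted p = 0.000674) at 8 h, a level 1.60-fold lower in Raptor-deficient cells, and -0.51 ± 0.13 (adjusted p = 0.00526) at 24 h.

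Snrpb2, whose product is the RNA-binding partner of the Snrpa1 protein, was lower along with it. At 8 h Snrpb2 stood at 8.69, 8.81, 8.57 and 8.49 in Raptor-deficient cells, against 8.98, 9.04, 8.98 and 9.17 in WT cells. Its 24 h levels were 8.96, 8.96, 9.14 and 9.02 in Raptor-deficient cells, against 9.42, 9.37, 9.50 and 9.48 in WT cells. These groups did not overlap, and the differences were -0.40 ± 0.11 (adjusted p = 0.0108) at 8 h and -0.43 ± 0.11 (adjusted p = 0.00408) at 24 h. Snrpa encodes a U1 protein that binds a stem-loop of U1 RNA. Unstimulated Snrpa levels were 7.45, 8.68, 8.33 and 8.20 in Raptor-deficient cells, against 8.09, 8.16, 8.16 and 8.31 in WT cells. At 8 h, Snrpa stood at 9.61, 9.73, 9.85 and 9.74 in Raptor-deficient cells, against 10.10, 10.26, 10.41 and 10.37 in WT cells. At 24 h, Snrpa stood at 9.89, 10.01, 10.17 and 10.04 in Raptor-deficient cells, against 10.21, 10.25, 10.26 and 10.27 in WT cells. Separation of the genotypes was complete at 8 h and 24 h, while without stimulation the Raptor-deficient samples ranged wider than the WT samples. Snrpa was lower in Raptor-deficient cells, with a difference of -0.55 ± 0.15 (adjusted p = 0.0136) at 8 h, and at 24 h the difference was -0.22 (adjusted p = 0.355). Its 24 h minus 8 h difference in WT cells was -0.04, with a 95% interval from -0.35 to 0.27. Snrpc, whose product helps U1 hold the 5′ splice site, was lower at 8 h, with a difference of -0.35 ± 0.10 (adjusted p = 0.0195), a call lost in 6 of 35 alternatives, and differed by -0.23 at 24 h (adjusted p = 0.113).

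**Figure D3:**
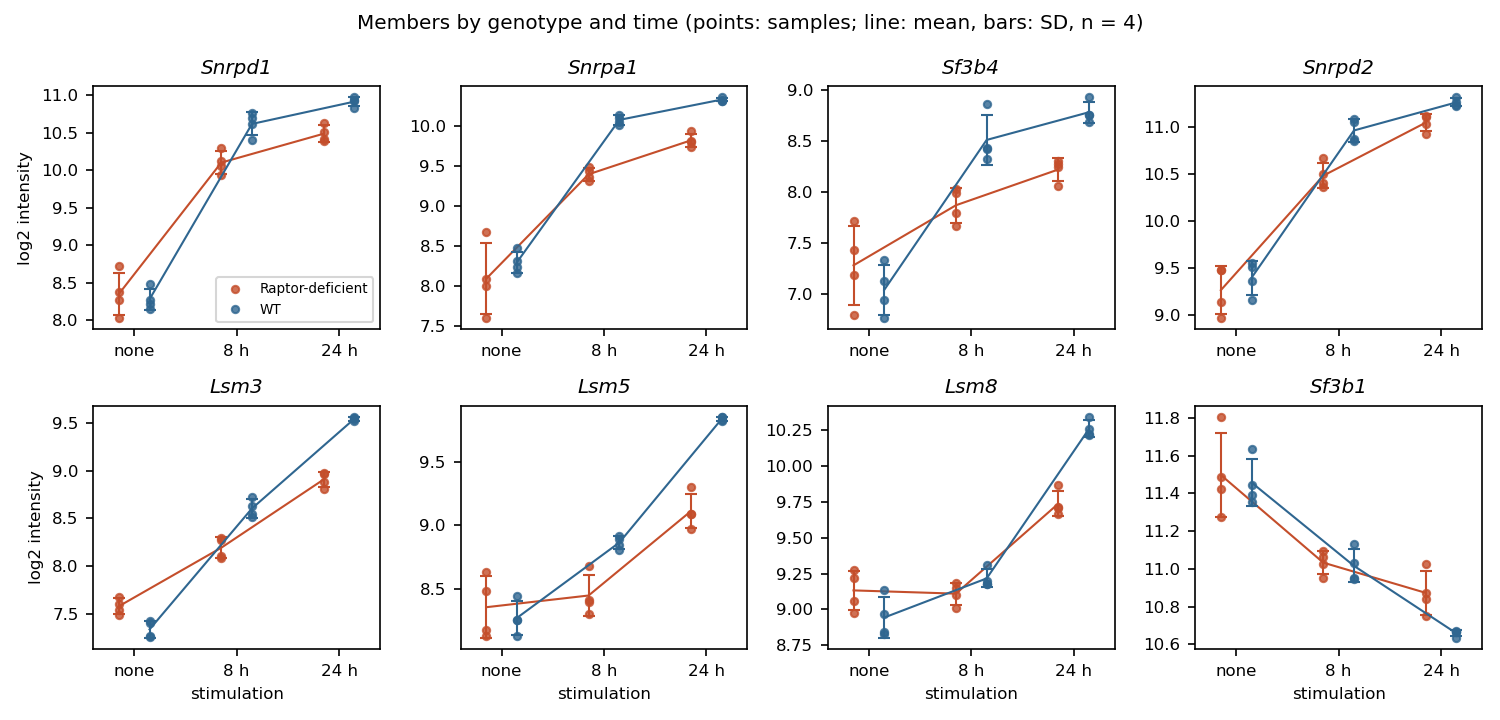
Log2 intensity of 8 members without stimulation, at 8 h and at 24 h, with a point for each sample, a line through the group means and bars of 1 SD (n = 4). Raptor-deficient samples (left in each pair) lie below WT samples at 24 h for Snrpd1, Snrpa1, Sf3b4, Snrpd2, Lsm3, Lsm5 and Lsm8 and above them for Sf3b1, and vertical axes differ between panels and do not start at 0.

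SF3a is a complex of 3 proteins that completes the U2 snRNP. All 3 genes rose in both genotypes at 8 h and at 24 h, 1 was lower in Raptor-deficient cells at 8 h, and all 3 were at 24 h. Sf3a1 encodes the largest subunit. Unstimulated Sf3a1 levels were 6.67, 6.72, 6.12 and 6.35 in Raptor-deficient cells, against 6.14, 6.36, 6.75 and 6.67 in WT cells. At 8 h, Sf3a1 stood at 7.23, 7.02, 7.24 and 7.09 in Raptor-deficient cells, against 7.25, 7.66, 7.82 and 7.57 in WT cells. At 24 h, Sf3a1 stood at 7.61, 7.46, 7.68 and 7.56 in Raptor-deficient cells, against 7.89, 7.95, 8.17 and 8.11 in WT cells. The genotypes overlapped without stimulation and were separate afterwards. Sf3a1 was lower, with a difference of -0.43 ± 0.14 (adjusted p = 0.0369) at 8 h and of -0.46 ± 0.14 (adjusted p = 0.0159) at 24 h, calls lost in 7 and 3 of 35 alternatives. The 2 other Sf3a1 probe sets were not called between genotypes at any time. Between 8 h and 24 h in WT cells the set used rose, and the others gave -0.03 (adjusted p = 0.938 over all probe sets) and -0.56 (adjusted p = 0.00511), the second of them a fall. At 24 h Sf3a2 levels were 7.62, 7.44, 7.40 and 7.20 in Raptor-deficient cells, against 7.81, 7.93, 7.81 and 7.85 in WT cells. Those of Sf3a3, like Sf3a2 the gene of a zinc finger subunit, were 10.77, 10.75, 10.89 and 10.80 in Raptor-deficient cells, against 11.01, 10.99, 11.07 and 11.00 in WT cells. In neither gene did the genotypes overlap at 24 h, and the differences were -0.43 ± 0.15 (adjusted p = 0.0367) and -0.22 ± 0.07 (adjusted p = 0.0381), each lost in 8 of 35 alternatives. The rise to 24 h in Raptor-deficient cells was 71.7%, 67.9% and 67.7% of the WT rise for Sf3a1, Sf3a2 and Sf3a3 on the log2 scale.

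The SF3b complex clamps the branch point of the intron. Of the 6 members in it, 5 rose and 1 fell in WT cells by 24 h, 3 were lower in Raptor-deficient cells at 8 h and 2 at 24 h. Phf5a, a further SF3b gene outside the member rule, is counted with the other U2 genes below. Sf3b4 encodes a subunit with RNA recognition motifs that contacts the transcript upstream of the branch point. Unstimulated Sf3b4 levels were 6.79, 7.71, 7.18 and 7.43 in Raptor-deficient cells, against 6.93, 7.12, 6.76 and 7.33 in WT cells. At 8 h, Sf3b4 stood at 7.79, 7.66, 8.00 and 8.03 in Raptor-deficient cells, against 8.44, 8.42, 8.87 and 8.32 in WT cells. At 24 h, Sf3b4 stood at 8.27, 8.06, 8.31 and 8.25 in Raptor-deficient cells, against 8.69, 8.76, 8.76 and 8.94 in WT cells. Groups overlapped without stimulation, where the Raptor-deficient samples were the more spread, and were separate at 8 h and 24 h. Raptor-deficient cells were lower, with a difference of -0.64 ± 0.15 (adjusted p = 0.00416) at 8 h and of -0.56 ± 0.15 (adjusted p = 0.00735) at 24 h. The rise of Sf3b4 to 24 h was 0.94 ± 0.15 in Raptor-deficient and 1.75 ± 0.15 in WT cells.

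Sf3b5 encodes a small subunit that sits in the SF3b scaffold. Unstimulated Sf3b5 levels were 8.05, 8.19, 8.22 and 8.20 in Raptor-deficient cells, against 8.22, 8.61, 8.17 and 7.88 in WT cells. At 8 h, Sf3b5 stood at 9.33, 9.41, 9.38 and 9.26 in Raptor-deficient cells, against 9.72, 9.91, 9.92 and 10.02 in WT cells. At 24 h, Sf3b5 stood at 9.72, 9.94, 10.12 and 9.96 in Raptor-deficient cells, against 10.31, 10.21, 10.40 and 10.19 in WT cells. Raptor-deficient samples were all below WT samples at 8 h and 24 h and lay within the WT range without stimulation. The difference was -0.54 ± 0.11 (adjusted p = 0.00122) at 8 h and -0.35 ± 0.11 (adjusted p = 0.0261) at 24 h, the second lost in 6 of 35 alternatives. Sf3b6, whose product p14 lies beside the branch point adenosine, was lower at 8 h, with a difference of -0.39 ± 0.11 (adjusted p = 0.0133), a call lost in 5 alternatives. Sf3b2 and Sf3b3 rose by 24 h in both genotypes, and their genotype differences at 24 h were -0.02 and -0.06, with 95% intervals from -0.20 to 0.16 and from -0.22 to 0.10.

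Sf3b1, the gene of the SF3b subunit that wraps the branch helix, went the opposite way from the other members of its complex. Unstimulated Sf3b1 levels were 11.81, 11.48, 11.28 and 11.42 in Raptor-deficient cells, against 11.39, 11.45, 11.36 and 11.64 in WT cells. At 8 h, Sf3b1 stood at 11.09, 11.06, 10.95 and 11.03 in Raptor-deficient cells, against 11.13, 11.03, 10.95 and 10.95 in WT cells. At 24 h, Sf3b1 stood at 11.03, 10.84, 10.75 and 10.87 in Raptor-deficient cells, against 10.67, 10.66, 10.63 and 10.67 in WT cells. Every stimulated sample of a genotype lay below every unstimulated sample of that genotype, and at 24 h all Raptor-deficient samples were above all WT samples, as for 12.0% of all genes. Sf3b1 fell by 24 h, with differences of -0.62 ± 0.09 (adjusted p = 3.48e-06) in Raptor-deficient and -0.80 ± 0.09 (adjusted p = 3.95e-08) in WT cells. Between 8 h and 24 h it fell in WT cells, with a difference of -0.36 ± 0.09 (adjusted p = 0.00429), and in Raptor-deficient cells the difference was -0.16 (adjusted p = 0.256). The genotype difference at 24 h, 0.21, was not called (adjusted p = 0.111), nor was the difference between the 8 h to 24 h responses (0.20, adjusted p = 0.591). All 3 Sf3b1 probe sets were lower at 24 h than without stimulation in WT cells (-0.80, -0.77 and -0.66). At 24 h one of the 3 probe sets was called higher in Raptor-deficient cells (0.30, adjusted p = 0.0433 over all probe sets).

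The ring of Lsm2 to Lsm8 binds the uridine-rich 3′ end of U6 RNA and takes part in joining U6 to U4. All 7 genes rose in both genotypes by 24 h, 3 were lower in Raptor-deficient cells at 8 h and 5 at 24 h. Lsm3 was the member with the second largest WT rise to 24 h. Unstimulated Lsm3 levels were 7.54, 7.68, 7.49 and 7.61 in Raptor-deficient cells, against 7.43, 7.40, 7.26 and 7.25 in WT cells. At 8 h, Lsm3 stood at 8.11, 8.28, 8.30 and 8.09 in Raptor-deficient cells, against 8.55, 8.51, 8.73 and 8.63 in WT cells. At 24 h, Lsm3 stood at 8.97, 8.81, 8.98 and 8.88 in Raptor-deficient cells, against 9.52, 9.56, 9.55 and 9.54 in WT cells. Without stimulation all Raptor-deficient samples were above all WT samples, as for 2.01% of all genes (log2 difference 0.24 ± 0.08, adjusted p = 0.109, not called), and at 8 h and 24 h all were below. The difference was -0.41 ± 0.08 (adjusted p = 0.000482) at 8 h and -0.64 ± 0.08 (adjusted p = 5.42e-07) at 24 h. The rise to 24 h was 1.33 ± 0.08 in Raptor-deficient and 2.21 ± 0.08 in WT cells.

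Lsm5 had the largest genotype difference of any member at 24 h. Unstimulated Lsm5 levels were 8.13, 8.63, 8.17 and 8.48 in Raptor-deficient cells, against 8.25, 8.44, 8.12 and 8.25 in WT cells. At 8 h, Lsm5 stood at 8.41, 8.68, 8.30 and 8.39 in Raptor-deficient cells, against 8.80, 8.84, 8.89 and 8.91 in WT cells. At 24 h, Lsm5 stood at 9.09, 8.97, 9.30 and 9.09 in Raptor-deficient cells, against 9.86, 9.85, 9.82 and 9.83 in WT cells. The groups overlapped without stimulation and were separate at both later times. At 24 h Lsm5 was lower, with a difference of -0.73 ± 0.10 (adjusted p = 6.5e-06), a level 1.66-fold lower in Raptor-deficient cells, and at 8 h with one of -0.42 ± 0.10 (adjusted p = 0.00645). From unstimulated cells to 8 h it rose in WT cells by 0.60 ± 0.10 (adjusted p = 2.8e-05), and in Raptor-deficient cells the difference was 0.09 (adjusted p = 0.563).

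Lsm8 sets the nuclear ring apart from the cytoplasmic one, in which Lsm1 takes its place. Unstimulated Lsm8 levels were 8.98, 9.27, 9.06 and 9.22 in Raptor-deficient cells, against 8.97, 9.14, 8.84 and 8.83 in WT cells. At 8 h, Lsm8 stood at 9.19, 9.10, 9.01 and 9.15 in Raptor-deficient cells, against 9.20, 9.31, 9.18 and 9.18 in WT cells. At 24 h, Lsm8 stood at 9.71, 9.66, 9.86 and 9.71 in Raptor-deficient cells, against 10.25, 10.21, 10.34 and 10.22 in WT cells. The genotypes overlapped without stimulation and at 8 h and were separate at 24 h. Lsm8 was lower in Raptor-deficient cells, with a difference of -0.52 ± 0.08 (adjusted p = 3.49e-05) at 24 h, and at 8 h the difference was -0.11 (adjusted p = 0.495). Between 8 h and 24 h it rose by 0.63 ± 0.08 in Raptor-deficient and 1.04 ± 0.08 in WT cells. A second Lsm8 probe set, at means of 5.71 in Raptor-deficient and 5.82 in WT cells at 24 h, fell in WT cells (-0.70 at 8 h and -0.50 at 24 h against unstimulated) and was not called between genotypes.

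Of the other ring genes, Lsm6 stood at 24 h at 9.33, 9.60, 9.81 and 9.63 in Raptor-deficient cells, against 9.97, 9.91, 10.05 and 9.96 in WT cells. At 8 h its levels were 8.99, 9.005, 9.22 and 8.97 in Raptor-deficient cells, against 9.31, 9.57, 9.61 and 9.60 in WT cells. Both times the groups were separate, with differences of -0.48 ± 0.09 (adjusted p = 0.000889) at 8 h and -0.38 ± 0.09 (adjusted p = 0.00382) at 24 h. Each call was lost in 1 alternative. Without stimulation all Raptor-deficient samples were also the lower, as for 3.47% of all genes, and the difference was not called. One of 4 Lsm6 probe sets fell in WT cells by 24 h (-0.40) where the other 3 rose. Lsm2 was lower at 24 h, with a difference of -0.44 ± 0.11 (adjusted p = 0.00544), and at 8 h differed by -0.20 (adjusted p = 0.298). Lsm4 and Lsm7 had no genotype call. Their 24 h differences were -0.09 and 0.08, with 95% intervals from -0.29 to 0.10 and from -0.24 to 0.40.

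Lsm1 starts the cytoplasmic ring, which with Pat1 promotes decapping and decay of messenger RNA. At 24 h it was 7.56, 7.37, 7.74 and 7.45 in Raptor-deficient cells, against 7.60, 7.59, 7.71 and 7.81 in WT cells. The groups overlapped. Lsm1 rose by 24 h by 0.52 ± 0.11 in Raptor-deficient and 0.62 ± 0.11 in WT cells, and its genotype differences were -0.30 at 8 h (adjusted p = 0.0719) and -0.15 at 24 h (adjusted p = 0.407). Of 8 genes of decapping and decay that work with this ring, 0 were called between genotypes at 8 h and Dcp2, the decapping enzyme, was lower in Raptor-deficient cells at 24 h (-0.46), where 13.1% of all genes were. In WT cells 1 of the 8 rose and 2 fell by 24 h, beside 25.4% and 24.3% of all genes, shares close to or under the background.

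Lsm10 and Lsm11 replace SmD1 and SmD2 in the U7 snRNP, which matures the 3′ ends of replication-dependent histone messages. Both were dim, with means over all arrays of 5.84 and 5.81 beside a median of 5.52 for all gene values. Unstimulated Lsm10 levels were 5.71, 5.23, 5.47 and 5.47 in Raptor-deficient cells, against 5.51, 5.63, 5.55 and 5.52 in WT cells. At 8 h, Lsm10 stood at 4.85, 5.84, 5.18 and 5.54 in Raptor-deficient cells, against 5.78, 5.89, 5.79 and 6.19 in WT cells. At 24 h, Lsm10 stood at 6.06, 5.93, 6.42 and 6.12 in Raptor-deficient cells, against 6.59, 6.65, 6.56 and 6.72 in WT cells. Raptor-deficient samples at 8 h were spread and overlapped the WT samples by 1 sample, and at 24 h all lay below. Lsm10 was lower, with a difference of -0.56 ± 0.15 (adjusted p = 0.0103) at 8 h and -0.50 ± 0.15 (adjusted p = 0.0153) at 24 h, and rose by 24 h by 0.66 ± 0.15 in Raptor-deficient and 1.08 ± 0.15 in WT cells. Lsm11 was 5.54, 5.60, 5.59 and 5.86 in Raptor-deficient cells, against 5.59, 5.35, 5.36 and 5.39 in WT cells at 24 h. Without stimulation Lsm11 levels were 6.06, 5.81, 6.55 and 6.47 in Raptor-deficient cells, against 6.08, 5.96, 6.21 and 5.92 in WT cells. Lsm11 fell by 24 h, with differences of -0.57 ± 0.12 (adjusted p = 0.00027) in Raptor-deficient and -0.62 ± 0.12 (adjusted p = 8.27e-05) in WT cells, and at 8 h all its Raptor-deficient samples were above all WT samples, as for 6.66% of all genes, with a difference that was not called (0.26 ± 0.12, adjusted p = 0.171). A second probe set showed no call in WT cells at 24 h (0.06, adjusted p = 0.743 over all probe sets).

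Lsm12 and Lsm14b carry an Lsm domain without belonging to these rings. Unstimulated Lsm12 levels were 9.70, 9.25, 9.29 and 9.20 in Raptor-deficient cells, against 9.13, 9.25, 9.07 and 8.84 in WT cells. At 8 h, Lsm12 stood at 9.75, 9.72, 9.63 and 9.58 in Raptor-deficient cells, against 9.92, 9.84, 9.84 and 9.94 in WT cells. At 24 h, Lsm12 stood at 9.88, 9.81, 9.91 and 9.89 in Raptor-deficient cells, against 10.16, 10.16, 10.19 and 10.10 in WT cells. The groups overlapped without stimulation and were separate at 8 h and 24 h. Lsm12 was lower at 24 h, with a difference of -0.28 ± 0.10 (adjusted p = 0.0355), a call lost in 10 of 35 alternatives, and at 8 h differed by -0.22 (adjusted p = 0.153). Lsm14b, a relative of the translational repressor Lsm14a, stood at 7.55, 7.80, 8.12 and 7.90 in Raptor-deficient and 7.83, 7.86, 7.89 and 7.81 in WT cells at 24 h, with overlap. It fell in Raptor-deficient cells at 8 h (-0.29 ± 0.11, adjusted p = 0.041), a call lost in 9 of 35 alternatives, and in WT cells the 8 h difference was -0.14 (adjusted p = 0.361).

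Whether the response itself differed between genotypes was tested as the Raptor-deficient change minus the WT change. From unstimulated cells to 24 h the response was smaller in Raptor-deficient cells for 6 members and larger for 0 (8.01% and 5.26% of all genes): Lsm3 (-0.88 ± 0.11, adjusted p = 1.73e-06), Lsm5 (-0.81 ± 0.15, adjusted p = 0.000323), Sf3b4 (-0.81 ± 0.21, adjusted p = 0.0116), Lsm8 (-0.71 ± 0.12, adjusted p = 0.000121), Lsm12 (-0.57 ± 0.13, adjusted p = 0.00506) and Snrpd1 (-0.50 ± 0.16, adjusted p = 0.041). The calls of Lsm3, Lsm5, Lsm12 and Sf3b4 held in all 35 alternatives, that of Lsm8 in all but 1, and that of Snrpd1 was lost in 14. All of these 6 had positive genotype differences without stimulation, none of them called, from 0.07 for Snrpd1 to 0.29 for Lsm12.

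From unstimulated cells to 8 h the response was smaller for 5 members and larger for 0 (4.36% and 1.94% of all genes): Sf3b4 (-0.88 ± 0.21, adjusted p = 0.0126), Lsm3 (-0.66 ± 0.11, adjusted p = 0.000562), Snrpd1 (-0.58 ± 0.16, adjusted p = 0.0284), Lsm5 (-0.50 ± 0.15, adjusted p = 0.0381) and Lsm12 (-0.50 ± 0.13, adjusted p = 0.0238). Over all genes the split was 331 higher and 745 lower, and 426 and 618 after cyclic loess or 255 and 994 with centred arrays. The member count was 2 after cyclic loess, 2 without WT unstimulated replicate 4 or without Raptor-deficient 8 h replicate 4, and 3 without WT unstimulated replicate 3, Raptor-deficient 8 h replicate 1, WT 8 h replicate 2 or WT 8 h replicate 3. From 8 h to 24 h it was smaller for Lsm8 alone (-0.41 ± 0.12, adjusted p = 0.0396) and larger for 0, beside 3.20% and 1.33% of all genes, and that call was lost in 17 of 35 alternatives, among them the omission of any of the 4 WT samples at 24 h. For Snrpa1 and Snrpb2, lower at both times, the 24 h response difference was -0.30 (adjusted p = 0.336) and -0.21 (adjusted p = 0.426).

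Members differed in how early they rose. The 8 h rise as a share of the 24 h rise in WT cells, on the log2 scale, had a median of 77.4% over the 29 members that rose, and ran from 20.7% for Lsm8 to 136% for Lsm7. Only 5 of the 29 were under 60%: Lsm8, Lsm10 (33.7%), Lsm5 (37.9%), Sf3b2 (40.3%) and Lsm3 (57.4%). Sm genes had a median of 84.0% (68.3% to 90.5%, 7 genes) and the Lsm2 to Lsm8 ring one of 72.8% (7 genes). The Raptor-deficient rise to 24 h as a share of the WT rise had a median of 81.1%, and ran from 46.0% for Lsm8 to 124% for Lsm7, with 3 members over 100%. It was under 60% for Lsm8, Lsm12 (47.5%), Lsm5 (48.3%) and Sf3b4 (54.0%). By role its median was 95.5% for the Sm genes, 86.0% for the U1 and U2 proteins, 81.1% for SF3b, 80.6% for the Lsm2 to Lsm8 ring and 67.9% for SF3a. These shares describe group means and were not tested between roles.

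**Figure D4:**
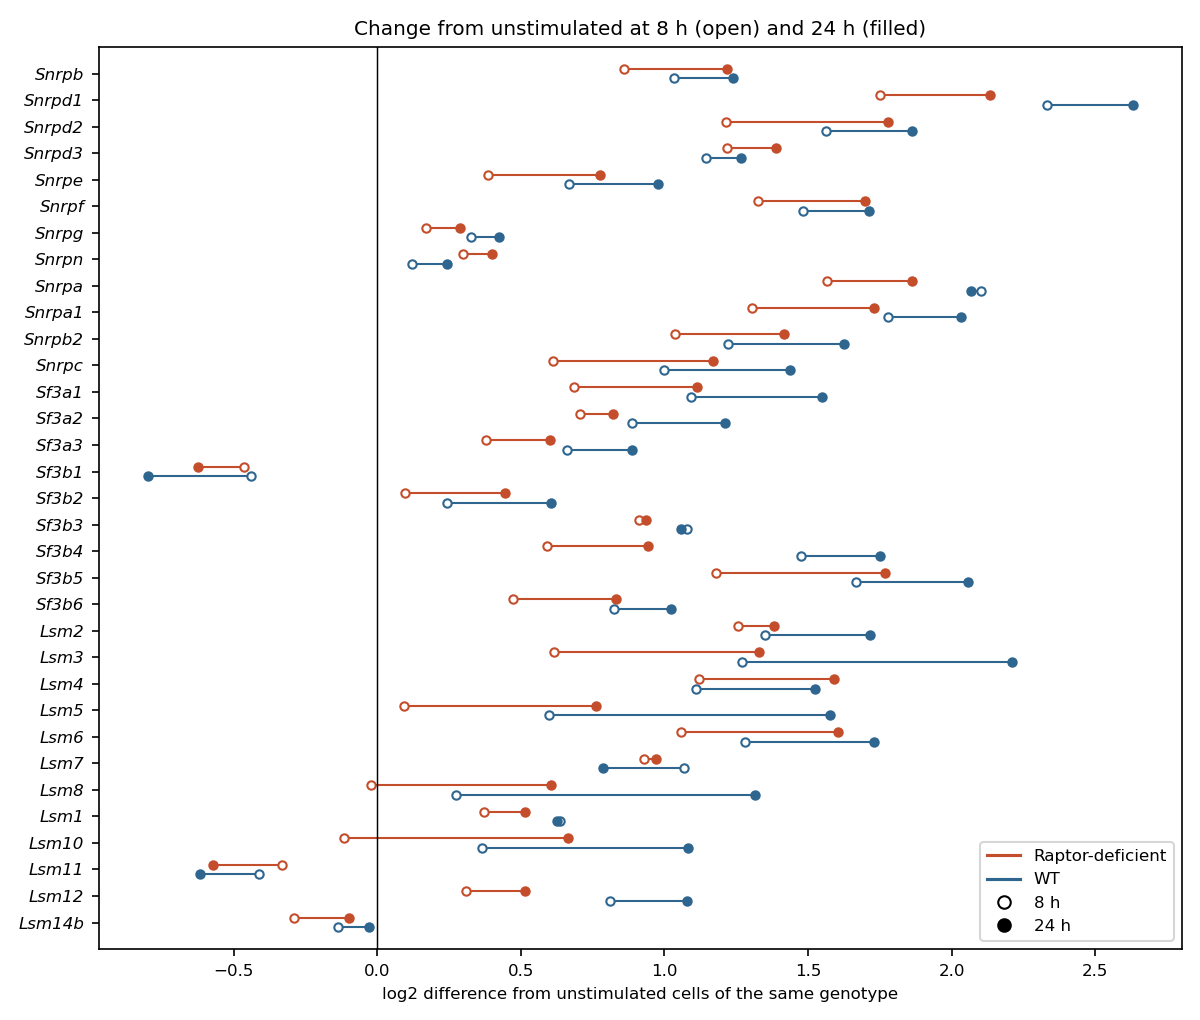
For each member, the horizontal axis gives the log2 difference from unstimulated cells of the same genotype at 8 h (open points) and 24 h (filled points), with the Raptor-deficient line above the WT line. Lsm3, Lsm5, Lsm8 and Lsm10 have the longest lines from 8 h to 24 h in WT cells. Sf3b1, Lsm11 and, by less, Lsm14b lie left of 0.

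Most members are bright on these arrays, and were set beside genes of like brightness. Among 2923 genes with a mean level of at least 8, 24.2% were called lower in Raptor-deficient cells at 8 h and 21% at 24 h, and of the 24 members in that range 58.3% and 50%. The median difference was -0.34 for these members and -0.08 for all bright genes at 8 h, and -0.23 and -0.03 at 24 h. For the WT rise to 24 h, 95.8% of these 24 members and 46.9% of bright genes were called higher.

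Other genes of the splicing machinery moved in the same comparisons. Of 128 genes on 11 further lists, 115 were measured. Those lists include the decapping and decay genes given above, which are not splicing machinery. In Raptor-deficient cells 27 were lower and 8 higher at 8 h, and 30 lower and 7 higher at 24 h, with medians of -0.17 and -0.11. Over all genes 8.77% were lower and 4.14% higher at 8 h, and 13.1% and 8.35% at 24 h, and the counts of each list below stand beside these shares. In WT cells 69 rose and 20 fell by 24 h, beside 25.4% and 24.3% of all genes. The factors that assemble snRNPs, among them the SMN complex with its Gemin proteins and the methylosome that methylates Sm proteins, had 7 of 16 lower and 0 higher in Raptor-deficient cells at 8 h, 9 lower and 0 higher at 24 h, and all 16 rose in WT cells by 24 h. At 24 h Coprs, a partner of the arginine methyltransferase Prmt5, was lower by a log2 difference of -1.50 ± 0.17 (adjusted p = 2.23e-07), Gemin6 by -1.06 ± 0.14 and Gemin2 by -0.76 ± 0.14. Wdr77, a methylosome subunit, rose by 2.56 ± 0.10 in WT cells by 24 h.

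Proteins of U5 and the U4/U6.U5 tri-snRNP had 6 of 14 lower at 8 h, 7 at 24 h and 0 higher at either time. Ppih, a cyclophilin of the tri-snRNP, was lower at 24 h by a log2 difference of -0.91 ± 0.12, Usp39 by -0.84 ± 0.13 and the U5 protein gene Snrnp40 by -0.53 ± 0.09. Of 9 other U2 genes 2 were lower at both times, Phf5a, which sits in SF3b, by -0.49 ± 0.08 and U2af1, which reads the 3′ splice site, by -0.46 ± 0.09 at 24 h. Of 10 SR proteins, regulators that bind exons, 2 were lower and 1 higher at 8 h and 4 lower and 1 higher at 24 h. Srsf3 was lower at 8 h by a log2 difference of -0.74 ± 0.07, and Tra2a was higher at 24 h by 0.67 ± 0.11. Of 17 hnRNP genes 5 were lower and 0 higher at 8 h, and 2 lower and 0 higher at 24 h, where the share called lower was under the 13.1% of all genes.

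The remaining lists were small or mixed. Among 14 PRP19-related genes 1 was lower and 3 higher at 8 h, and 2 were lower and 1 higher at 24 h, and the shares called lower at both times were close to those of all genes. Of 9 factors that act in the catalytic steps 2 were lower and 1 higher at each time, the higher one being Slu7. Of 7 genes of the minor spliceosome 2 were lower and 0 higher at 8 h, and 1 was lower and 1 higher at 24 h, where Snrnp25 differed by -1.12 ± 0.21. None of 4 other U1 genes was called between genotypes at either time. In WT cells by 24 h Luc7l3 (-0.62 ± 0.08) and Snrnp70 (-0.38 ± 0.07) fell, and Luc7l2 rose (0.30 ± 0.08). Of 7 kinases that phosphorylate splicing factors, 3 were higher and 0 lower in Raptor-deficient cells at both times, and 0 rose and 5 fell in WT cells by 24 h. Clk1 was higher at 24 h by 0.69 ± 0.10 in Raptor-deficient cells and fell in WT cells by 24 h, with a difference of -1.65 ± 0.10.

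**Figure D5:**
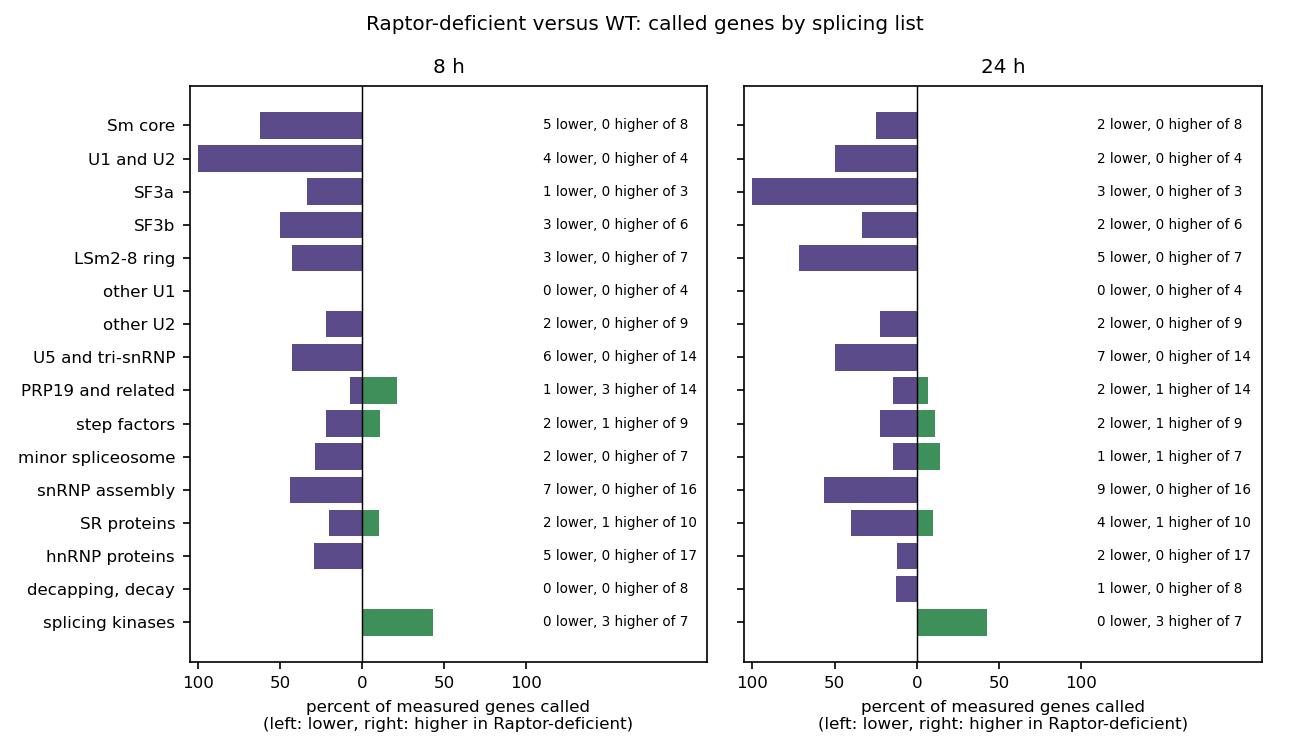
Bars give the percent of measured genes of each list called lower (left of 0) or higher (right of 0) in Raptor-deficient than in WT cells at 8 h and at 24 h, with the counts printed beside them. The 5 role groups of core proteins at the top, the tri-snRNP and the snRNP assembly factors have bars to the left of 0, and the splicing kinases to the right.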

How the data were processed

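Per the submitters' processing notes the log2 intensities deposited by the authors were made with RMA and Partek 6.5. Labelled cDNA came from 20 ng of total RNA through NuGEN amplification, per the labels' protocols. Of 45141 probe sets, 28898 named 1 gene, 551 several and 15692 were not listed in the platform's gene table. The members had 64 probe sets, 19 members having more than 1. The brightest probe set over all 24 arrays stood for each of 17097 genes, with no filter on level, and all 33 members matched the RefSeq gene table of GRCm38.p6. The arrays' number limits the precision.

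limma 3.58.1 in R 4.3.3 fitted a mean for each of the 6 groups to all 24 arrays, with 18 residual degrees of freedom and variances moderated by empirical Bayes. Tests were two-sided, with Benjamini-Hochberg adjustment over all genes within a comparison and calls at an adjusted p under 0.05. A figure of 35 alternatives covers 24 omissions of 1 array each and 11 other settings of probe set, scaling, filter, moderation, samples, weights and block. Most of these omissions lie outside any 2 groups compared, so a count out of 35 understates how far a call rests on single arrays. Every member could be named. Genes of other splicing lists were named as the up to 3 with the smallest p among called genes of a list and comparison. The members, lists and tests were chosen with earlier results of these data known. The pipeline was tested on simulated data. Probe sets that did not pass the choice above were used only where stated. Python 3.11.15 and matplotlib 3.10.9 drew the plots.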

Additional observations from a re-analysis of the deposited data

Results flagged for a closer look

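In 198 sets of 4 samples (33 members in 6 groups), 10 had a sample far from the other 3, where chance gives about 1 in 20 groups. Of these, 3 fell in unstimulated Raptor-deficient replicate 1: Lsm2 at 8.55 (others 9.21 to 9.31), Sf3b2 at 9.62 (others 9.20 to 9.23) and Sf3b6 at 8.66 (others 8.20 to 8.24). Among Raptor-deficient samples at 8 h, Lsm6 stood at 9.22 in replicate 3 (others 8.97 to 9.005) and Sf3b2 at 9.45 in replicate 4 (others all 9.40). In WT cells Lsm6 at 8 h was 9.31 in replicate 1 (others 9.57 to 9.61), Lsm8 at 8 h was 9.31 in replicate 2 (others 9.18 to 9.20), and Lsm11 at 24 h was 5.59 in replicate 1 (others 5.35 to 5.39). Without stimulation, Sf3a2 in WT replicate 2 was 6.39 (others 6.69 to 6.74) and Snrpe in WT replicate 4 was 10.56 (others 10.69 to 10.71).

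The test of the difference between the genotypes' responses also singled out 12 values, given as the Raptor-deficient minus the WT log2 change. To 8 h they were -0.50 for Lsm12, -0.66 for Lsm3, -0.50 for Lsm5, -0.88 for Sf3b4 and -0.58 for Snrpd1. To 24 h they were -0.57 for Lsm12, -0.88 for Lsm3, -0.81 for Lsm5, -0.71 for Lsm8, -0.81 for Sf3b4 and -0.50 for Snrpd1. From 8 h to 24 h the value was -0.41 for Lsm8.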

How the results depend on the processing

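The 202 called member results gave 7070 values under the 35 alternatives, of which 6802 kept direction and call, 266 lost the call and 2 reversed. Both reversals came when probe sets were averaged per gene, where unused probe sets went the other way (1 for Lsm8, 2 for Sf3a1): Lsm8 in WT cells at 8 h against unstimulated (-0.22, adjusted p = 0.0458) and Sf3a1 in WT cells at 24 h against 8 h (-0.043, adjusted p = 0.837). Counts of called members that moved by over 1.5 times were these. Raptor-deficient against WT cells without stimulation gave 0 with averaged probe sets, with array weights and with only the 2 groups in the fit, and 3 with Raptor-deficient unstimulated replicates 2 and 3 both left out. At 8 h it gave 11 after cyclic loess, and at 24 h 9 without the samples that held liver transcripts. Raptor-deficient cells at 24 h against 8 h gave 12 after cyclic loess. The response difference to 8 h gave 10 with averaged probe sets, 2 after cyclic loess, 9 with array weights and 2 with only the groups concerned. That from 8 h to 24 h gave 0 with averaged probe sets, with centred arrays, with the number as a fixed block and without the liver samples. The cause of these moves was not tested.

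Leaving out 1 array at a time gave 0 to 1, 11 to 18 and 9 to 17 calls for Raptor-deficient against WT cells without stimulation, at 8 h and at 24 h. For Raptor-deficient cells it gave 24 to 28 at 8 h against unstimulated, 13 to 21 at 24 h against 8 h and 31 to 32 at 24 h against unstimulated. For WT cells the same comparisons gave 29 to 31, 13 to 19 and 31 to 31. The response differences gave 2 to 7 to 8 h, 0 to 1 from 8 h to 24 h and 5 to 8 to 24 h.

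Whether the samples' numbers pair them was not settled. Deviations of same-numbered samples correlated at -0.07 to 0.25. Of such pairs, 8 of 36 between genotypes and 2 of 24 within a genotype were over 0.1, against 5 of 108 and 1 of 72 pairs of different numbers. At 24 h 3 of the 4 same-numbered pairs of the genotypes were over 0.1. Same-numbered pairs of the genotypes at the same time correlated positively throughout. The values were 0.03 to 0.12 without stimulation, 0.02 to 0.24 at 8 h and 0.06 to 0.25 at 24 h. With the number as a fixed block, the 3 genotype comparisons gave 1, 16 and 16 calls, the Raptor-deficient ones 27, 19 and 31, the WT ones 30, 17 and 31, and the response differences 5, 0 and 5 (to 8 h, from 8 h to 24 h, to 24 h). As a random block within genotype they gave 1, 17 and 16, then 28, 19 and 31, then 30, 17 and 31, then 5, 1 and 6. A block within genotype cannot take up pairing across genotypes. The fixed block held a single effect for each number over all times, so it cannot fully take up a pairing confined to a time. No fit with a block for number within a time was made. Precision is limited by 4 arrays a group and, for Lsm10, Lsm11 and Snrpn, by levels near the median of all genes.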
